A study of Mus musculus with 4 samples.

Results

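Chromatin accessibility at 10 genes that encode transcription factors of fat cell formation was measured in single nuclei of mouse inguinal white adipose tissue (iWAT, the subcutaneous fat pad of the groin). The genes are Cebpa, Cebpb, Cebpd and Cebpg of the C/EBP family, Klf2, Klf4, Klf5, Klf9 and Klf15 of the Krüppel-like factor (KLF) family, and Zfp423. The rule names them by their known roles and uses no measured value, although the choice was made with earlier results of these data known. They are 10 of the 17196 protein-coding genes with a peak of accessibility on the gene or the 2000 bases before its start. Together they hold 93 of the 189598 peaks of the study, of which 59 lie on Zfp423.

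The study followed the browning of iWAT with a single-nucleus assay for transposase-accessible chromatin (snATAC-seq), in which an enzyme cuts open DNA in each nucleus. All animals were male C57BL/6 mice, 8 weeks of age at the start, with no engineered allele, and all were acclimated to room temperature (22 °C). A group of 3 mice was taken before any intervention (day0RT). Groups of 3 mice each were taken after 1, 3 and 7 days in the cold at 6.5 °C (day1C, day3C and day7C). Further groups of 3 mice each were taken after 1, 3 and 7 days of CL-316,243 (CL), an agonist of the beta-3 adrenergic receptor, given at 1 mg/kg at room temperature (day1CL, day3CL and day7CL). No group was a vehicle control or an untreated control of the same day, so treated mice are set against day0RT alone or against each other. Nuclei came from whole tissue with no sorting of fat cells, and the authors assigned 32552 nuclei of 21 mice to 12 clusters.

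The C/EBP proteins are leucine zipper factors that act as pairs, and the KLF proteins are zinc finger factors that bind GC-rich and CACCC sequences. In cultured preadipocytes they act as a cascade: C/EBP beta, C/EBP delta and KLF4 come first after the hormonal stimulus, KLF5 and KLF9 link them to the next step, and C/EBP alpha then keeps the mature fat cell state together with PPAR gamma. KLF15 acts late and in the mature cell, KLF2 holds differentiation back, C/EBP gamma is a pairing partner with little activity of its own, and ZFP423 marks committed progenitors and keeps white adipocytes from taking on beige character. Accessibility measures whether DNA is open at these genes, not how much of their RNA or protein is made.

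The value used throughout is the CPM of a gene: the number of nuclei of a mouse and cluster with a read in each of its peaks, added over its peaks and scaled to a total of 1000000 such counts over all genes. A sum of nuclei of a mouse and cluster is called a library here. A sum was used where a mouse gave at least 10 nuclei of a cluster. White adipocytes had 5935 nuclei in 21 mice and beige adipocytes 1069 nuclei in 19 mice with enough nuclei. The adipocyte progenitor clusters APC1 and APC2 had 665 and 562 nuclei in 20 and 19 mice, and vascular endothelial cells (VEC) 351 nuclei in 15 mice. Gene totals ran from 34469 to 2862029 counts per mouse in white adipocytes, from 8831 to 270523 in APC1 and from 6689 to 98092 in VEC, so values of the small clusters are less precise. White adipocytes carried the highest level of 4 of 6 adipocyte markers, beige adipocytes of 4 of 5 beige markers and APC1 of 4 of 5 progenitor markers. VEC carried the highest level of 2 of 5 endothelial markers and the highest summed level of that list, at 887 CPM, with adipocyte markers at 742 CPM, more than in any other cluster besides the adipocytes. The cluster annotated as vascular smooth muscle (VSMC) carried the highest level of 5 of 5 skeletal muscle markers, and APC2 of 4 of 5 smooth muscle markers, so these names stand here only as the authors' labels. Of the nuclear barcode sequences, 4218 occurred in at least 2 mice, always in mice of the same treatment and replicate number on other days, and 21.5% of these 4824 pairs fell in the same cluster, against 20.7% from the cluster sizes. None of the barcode sequences of day0RT mice occurred in another mouse.

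Most members are short genes with their accessibility near the gene start. Cebpa (ENSMUSG00000034957, chr7:35119293-35121928 of the mouse build GRCm38, which is mm10) has 2 peaks, Cebpb (ENSMUSG00000056501, chr2:167688915-167690418) 2, Cebpd (ENSMUSG00000071637, chr16:15887286-15891031) 4 and Cebpg (ENSMUSG00000056216, chr7:35046422-35056573) 6. Klf2 (ENSMUSG00000055148, chr8:72319033-72321656) has 1 peak, Klf4 (ENSMUSG00000003032, chr4:55527143-55532466) 4, Klf5 (ENSMUSG00000005148, chr14:99298691-99315036) 2, Klf9 (ENSMUSG00000033863, chr19:23141226-23168134) 7 and Klf15 (ENSMUSG00000030087, chr6:90462576-90475238) 6. Zfp423 (ENSMUSG00000045333, chr8:87661810-87959595) is the long one, and 51 of its 59 peaks are intronic. Cebpg, Klf4 and Zfp423 lie on the minus strand. Both Cebpb peaks also counted for Tmem189 and 3 of the 4 Cebpd peaks for Spidr, whose annotations overlap them, so opening there cannot be assigned to either gene.

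The promoters of Cebpa, Klf4 and Klf15 are shown first, as those of a late, an early and a second late factor whose cluster differences are described. Each covers 250 bases before to 50 after the start as RefSeq places it on GRCm38, read along the strand of the gene. Cebpa is at chr7:35119043-35119342 on the plus strand, Klf4 at chr4:55532426-55532725 on the minus strand and Klf15 at chr6:90462326-90462625 on the plus strand. Capitals mark the TATA box (TATAAA), the GC box (GGGGCGGGG, a KLF and Sp1 type sequence) and the E-box (CACGTG), each on either strand.
Cebpa promoter: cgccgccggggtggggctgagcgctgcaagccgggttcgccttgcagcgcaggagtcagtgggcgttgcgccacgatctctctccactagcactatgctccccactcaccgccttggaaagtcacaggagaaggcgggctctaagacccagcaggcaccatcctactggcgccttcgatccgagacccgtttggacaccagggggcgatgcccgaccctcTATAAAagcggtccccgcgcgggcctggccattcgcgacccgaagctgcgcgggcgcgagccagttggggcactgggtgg
Klf4 promoter: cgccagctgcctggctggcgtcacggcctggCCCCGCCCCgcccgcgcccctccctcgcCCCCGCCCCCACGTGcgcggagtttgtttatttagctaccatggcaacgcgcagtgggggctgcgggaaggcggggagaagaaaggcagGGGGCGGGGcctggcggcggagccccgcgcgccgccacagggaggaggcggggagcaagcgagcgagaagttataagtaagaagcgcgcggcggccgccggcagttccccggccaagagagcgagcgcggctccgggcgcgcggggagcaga
Klf15 promoter: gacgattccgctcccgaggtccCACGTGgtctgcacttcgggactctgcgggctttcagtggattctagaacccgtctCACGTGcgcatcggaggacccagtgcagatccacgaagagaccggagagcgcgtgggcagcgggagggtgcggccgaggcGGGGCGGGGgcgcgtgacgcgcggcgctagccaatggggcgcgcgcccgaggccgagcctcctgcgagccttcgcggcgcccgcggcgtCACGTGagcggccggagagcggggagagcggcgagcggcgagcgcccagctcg
Cebpa holds 1 TATA box, Klf4 holds 3 GC boxes with an E-box directly beside the second, and Klf15 holds 3 E-boxes and 1 GC box. Of the 32851 RefSeq promoters of this length that were searched, with 1 chromosome left out, 13.6% hold a TATA box, 11.4% a GC box and 7.15% an E-box. A promoter entry was matched for 8 of the 10 members, all but Cebpd and Klf5. A cyclic AMP response element (TGACGTCA), present in 1.79% of promoters, and a CACCC box (CCACACCC), present in 3.56%, had no match in the promoters of these 8 members.

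Next come the regions away from the start that differed between cell types or with treatment, each as the central 300 bases of the peak on the plus strand. The Cebpb upstream peak is shown because it was more open in beige than in white adipocytes (chr2:167687657-167687956). The Klf15 coding exon peak was open in adipocytes and nearly closed in progenitors (chr6:90467158-90467457), the Klf15 intron peak was less open in beige adipocytes (chr6:90471104-90471403), and the Zfp423 intron peak fell by day 7 of both treatments (chr8:87851763-87852062). Capitals mark a nuclear receptor half-site (AGGTCA) in the first, a glucocorticoid receptor half-site (AGAACA, here on the minus strand) in the third, and 2 E-boxes (CACGTG) with a C/EBP site (ATTGCNNAA, here on the minus strand) in the fourth.
Cebpb upstream peak: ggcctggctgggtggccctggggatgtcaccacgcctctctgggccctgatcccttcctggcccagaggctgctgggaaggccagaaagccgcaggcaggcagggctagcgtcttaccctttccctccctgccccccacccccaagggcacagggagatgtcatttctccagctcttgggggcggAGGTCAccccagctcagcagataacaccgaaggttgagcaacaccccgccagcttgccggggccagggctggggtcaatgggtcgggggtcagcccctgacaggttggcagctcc
Klf15 coding exon peak: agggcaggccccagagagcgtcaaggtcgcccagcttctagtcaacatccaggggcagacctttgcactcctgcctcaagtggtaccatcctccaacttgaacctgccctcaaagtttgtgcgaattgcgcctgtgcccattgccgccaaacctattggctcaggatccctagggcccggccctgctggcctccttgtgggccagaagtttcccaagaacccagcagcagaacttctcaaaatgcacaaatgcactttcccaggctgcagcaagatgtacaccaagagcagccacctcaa
Klf15 intron peak: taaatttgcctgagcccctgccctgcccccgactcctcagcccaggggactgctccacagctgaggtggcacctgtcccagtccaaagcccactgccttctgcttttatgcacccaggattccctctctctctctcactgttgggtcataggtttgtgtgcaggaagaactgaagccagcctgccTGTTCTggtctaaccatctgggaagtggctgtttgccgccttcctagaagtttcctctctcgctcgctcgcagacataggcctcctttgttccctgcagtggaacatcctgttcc
Zfp423 intron peak: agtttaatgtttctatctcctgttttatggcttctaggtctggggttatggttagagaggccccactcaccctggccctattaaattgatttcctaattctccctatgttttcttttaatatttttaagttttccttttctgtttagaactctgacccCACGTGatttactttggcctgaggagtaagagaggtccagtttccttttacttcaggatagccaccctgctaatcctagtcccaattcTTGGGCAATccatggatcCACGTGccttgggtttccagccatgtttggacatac
Of the centres of 183399 peaks, without the chromosome left out above, 21% hold AGGTCA, 25.9% AGAACA, 5.31% an E-box and 5.41% a C/EBP site. The half-sites are thus common letters. The matches describe the sequence and were not tested as binding sites.

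The members fell into 3 patterns over the 12 clusters: Cebpa and Zfp423 were highest in white adipocytes, Klf2 in lymphocytes, and the others in APC1, VEC or the cluster annotated as VSMC. Per kilobase of peak, the level in white adipocytes was highest for Cebpa at 69.3 CPM and lowest for Klf5 at 17.7 CPM, with Klf15 at 53.6, Cebpb at 49.2, Klf2 at 34.3, Cebpg at 32.9, Cebpd at 31.6, Klf9 at 27.9, Klf4 at 20 and Zfp423 at 18.7 CPM. On that scale APC1 put Klf2 at 83.7, Klf4 at 81.4 and Cebpd at 66.5 CPM above Cebpa at 54.3 CPM. Neighbours in the order of clusters mostly did not differ beyond the spread of their difference within mice. Of 11 steps per gene, 1 was larger than its standard deviation for Klf2, Klf15 and Zfp423 and 0 for the other 7 members. These steps were from CD4 T cells to VSMC for Klf2, from APC2 to VEC for Klf15 and from APC2 to B cells for Zfp423, where APC2 was higher in 19 of 19 mice.

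**Figure D1:**
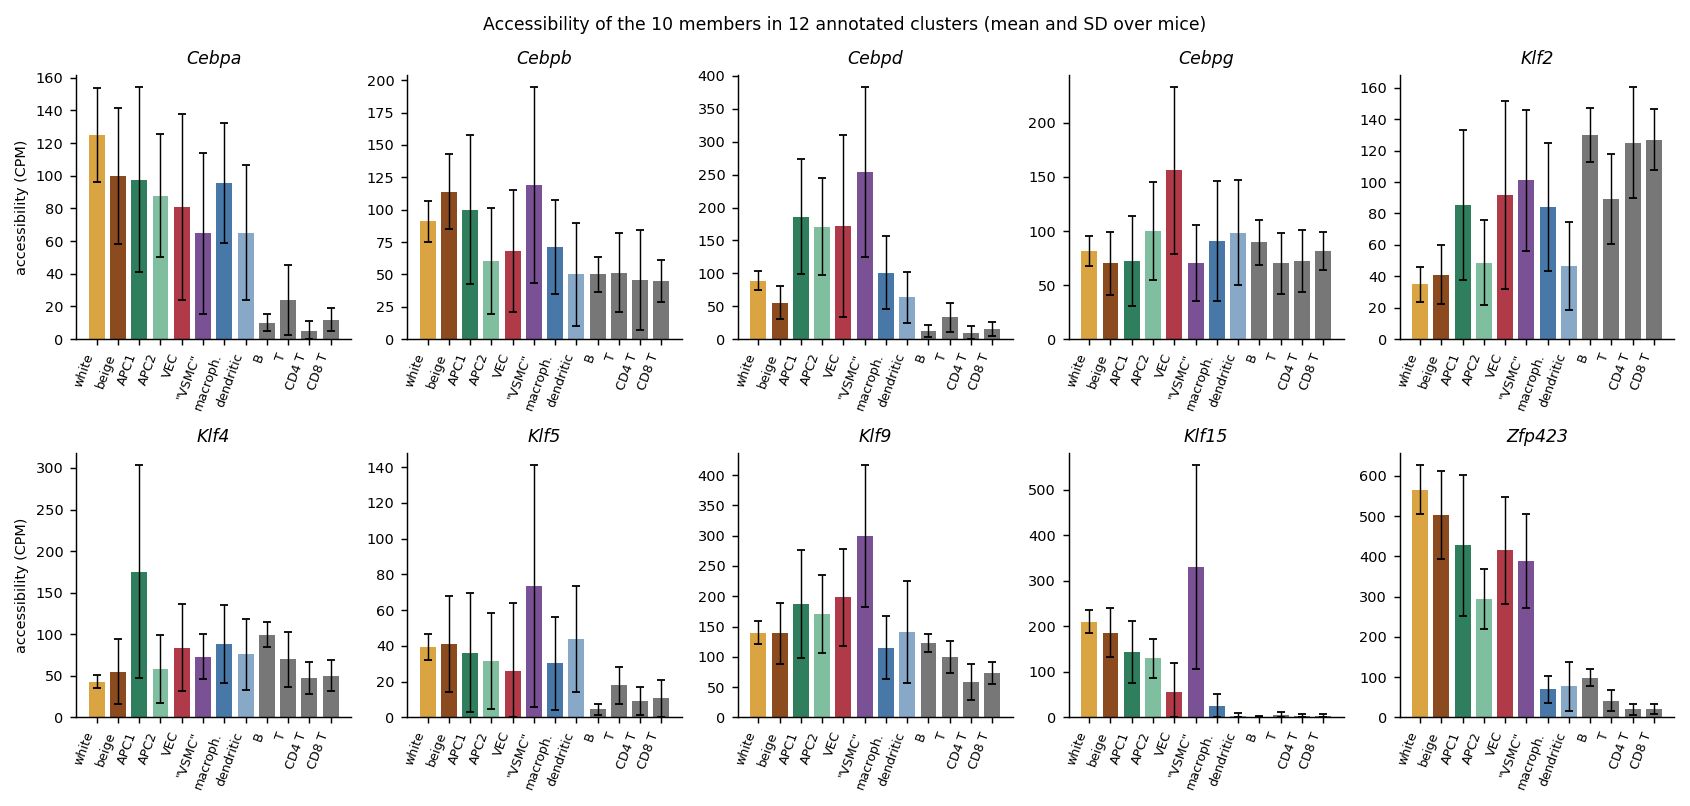
Level of each member in every cluster, as CPM summed over the peaks of the gene. Bars are means over mice with at least 10 nuclei of the cluster and whiskers are the standard deviation. Zfp423 and Cebpa are highest in white adipocytes, at means of 565 and 125 CPM, whereas Klf4 is highest in APC1 at 175 CPM.

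The pairs of clusters that the cascade is about were then compared within mice with the edgeR quasi-likelihood test over all genes, with the mouse as a block. Since the authors built the clusters from this same matrix, adjusted p-values between clusters are not independent of the clustering. CPM levels and counts of mice are scaled by gene totals alone, whereas the test scales libraries further (TMM scaling). Differences in CPM can therefore be larger or smaller than the log2 fold changes of the test. Klf5 had too few counts to be tested between clusters, so each count is over 9 members. In beige against white adipocytes 1 member was higher and 4 were lower, where 32% of all 8923 genes tested were called. The median log2 fold change of the members was -0.21, against -0.07 over all genes tested. APC1 against white adipocytes gave 3 higher and 4 lower, where 52.7% of genes were called, with medians of -0.1 and -0.07. APC1 against APC2 gave 3 higher and 0 lower, where 25.7% were called, with medians of 0.08 and -0.02. VEC against white adipocytes gave 3 higher and 3 lower, where 45.2% were called, with medians of 0.03 and -0.18. The tool matters for these comparisons, as DESeq2 changes both scaling and test: under DESeq2 the median over all genes was higher by 0.11, 0.27, 0.15 and 0.31 in the same order, and calls that were higher made up 58.4, 63.5, 57.3 and 54.1% in place of 32.1, 38, 41.8 and 27.8%. Relative to the median of all genes the members kept their place, as with Cebpa in beige adipocytes (-0.28 in edgeR and -0.3 in DESeq2), Klf4 in APC1 against white adipocytes (1.57 and 1.61) and Klf15 in VEC (-1.82 and -1.93). At the level of single peaks, 17 of the 93 peaks had enough counts in beige and white adipocytes, 1 was higher in beige and 2 were lower, where 16% of peaks were called. In APC1 against white adipocytes 5 peaks were tested, 2 were higher and 1 was lower, where 39.2% were called.

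**Figure D2:**
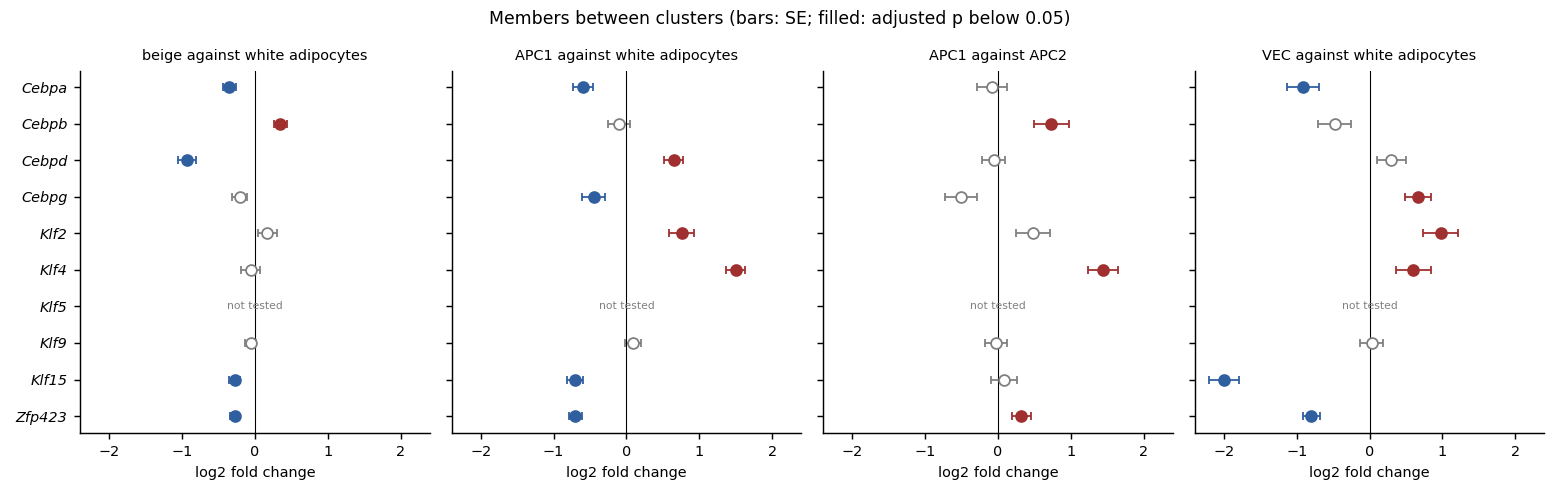
Log2 fold change of each member with its standard error in the comparisons between clusters, from the edgeR quasi-likelihood test. Filled points passed an adjusted p of 0.05. Klf4 in APC1 against white adipocytes, at 1.50, and Klf15 in VEC against white adipocytes, at -2.00, lie at the ends of the range.

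Among the early factors, Cebpb was slightly more open in beige than in white adipocytes, at peaks that also counted for Tmem189. Cebpd was less open as a whole gene but did not pass the test at its start peak, and its other peaks also counted for Spidr. Cebpb, whose protein starts the cascade and which cyclic AMP induces, ran over the mice from 63.6 to 131 CPM with a median of 88.3 in white adipocytes and from 57.4 to 169 CPM with a median of 120 in beige adipocytes. The ranges overlapped, but beige was higher in 15 of 19 mice. The log2 fold change was 0.35 (SE 0.09, adjusted p = 0.00053, edgeR). The difference was larger at the upstream peak (chr2:167687592-167688022, with its centre -1108 bases from the start). Its level was 26.6 CPM ± 5.74 (SD, n = 21) in white adipocytes and 42.6 CPM ± 21.7 (SD, n = 19) in beige ones. There beige was higher in 14 of 19 mice and the log2 fold change was 0.74 (SE 0.15, edgeR adjusted p = 2e-05). The start peak gave 0.21 with an adjusted p of 0.145. The same upstream peak held 23.2 CPM in APC1 but 3.61 CPM in VEC and 2.77 CPM in CD8 T cells. Cebpb as a whole did not pass the test in APC1 against white adipocytes (log2 fold change -0.10, SE 0.15, adjusted p = 0.609), and was higher in APC1 than in APC2 in 15 of 18 mice (0.73, SE 0.24, edgeR adjusted p = 0.0106).

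Cebpd, the other early C/EBP gene, was more open in APC1 than in fat cells, a level not particular to APC1. Its mean was 186 CPM in APC1, 171 in APC2, 172 in VEC and 254 in the cluster annotated as VSMC. APC1 did not differ from APC2 by the test (log2 fold change -0.06, SE 0.16, edgeR adjusted p = 0.87), nor VEC from white adipocytes (0.30, SE 0.20, edgeR adjusted p = 0.233). Cebpd ran from 66.9 to 129 CPM with a median of 84.2 in white adipocytes, from 30 to 124 with a median of 47.9 in beige adipocytes, and from 64.3 to 379 with a median of 154 in APC1. The 3 ranges overlapped, although APC1 was above white adipocytes in 19 of 20 mice and beige below in 17 of 19. The log2 fold change was 0.65 in APC1 (SE 0.13, edgeR adjusted p = 2.8e-06) and -0.93 in beige (SE 0.12, adjusted p = 1.6e-12), both against white adipocytes. In APC1 the start peak differed too, at 110 CPM against 51.8 CPM in white adipocytes (log2 fold change 0.60, SE 0.14, edgeR adjusted p = 0.00019). In beige adipocytes the start peak held 49.7 CPM and did not pass the test (log2 fold change -0.27, SE 0.11, adjusted p = 0.127). The remainder came from 3 peaks in the 3 prime untranslated exon, looked at after their values were seen and shared with Spidr. Together these gave 731 counts and 36.6 CPM ± 12.4 (SD, n = 21) in white adipocytes. Beige adipocytes gave 19 counts and 5.83 CPM ± 8.61 (SD, n = 19), with 7 of 19 beige libraries at 0 and beige lower in 19 of 19 mice. Counted only within 2000 bases of the gene start, Cebpd no longer passed the test in beige against white adipocytes (-0.30, edgeR adjusted p = 0.107).

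Klf4, an early zinc finger factor that turns on Cebpb, was more open in APC1 than in white adipocytes or APC2. It ran from 64.3 to 679 CPM with a median of 143 in APC1, from 29 to 59.8 with a median of 43.9 in white adipocytes, and from 0 to 172 with a median of 55.9 in APC2. The lowest APC1 library lay above the highest white adipocyte library, and APC1 was higher in 20 of 20 mice than white adipocytes and in 17 of 18 than APC2. The log2 fold changes were 1.50 (SE 0.13, edgeR adjusted p = 1.5e-23) and 1.44 (SE 0.21, edgeR adjusted p = 2.6e-10). Both the start peak, whose promoter is printed above, and the gene body had higher means in APC1, but no Klf4 peak had enough counts for the test. The start peak held 93.4 CPM ± 120 (SD, n = 20) in APC1 and 19.2 CPM in white adipocytes. Its APC1 libraries ran from 0 to 566 CPM with a median of 57.4, beside a median of 19.1 in white adipocytes. In the same order, 2 peaks within the gene, looked at after their values were seen, together held 65.9 CPM ± 30.9 (SD, n = 20) and 11.8 CPM ± 5.05 (SD, n = 21). Klf4 was also higher in VEC than in white adipocytes (0.60, SE 0.24, edgeR adjusted p = 0.0287), in 11 of 15 mice, and this call was lost without day1CL replicate 3 (adjusted p = 0.153), day3C replicate 1 (0.0809) or day7C replicate 3 (0.0595). Beige and white adipocytes gave a log2 fold change of -0.06 (SE 0.13, adjusted p = 0.785).

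Of the middle factors, Klf9 as a whole gene was not called by edgeR in APC1 or beige against white adipocytes. The other, Klf5, had too few counts for that test. Klf5, which relays the early C/EBP signal to Pparg, was the least open member per kilobase of peak in white adipocytes, and as a whole gene ran there from 29 to 57.2 CPM with a median of 38.2. Its means were 41.3 CPM ± 26.9 (SD, n = 19) in beige adipocytes, 36.3 CPM ± 33.2 (SD, n = 20) in APC1 and 4.57 CPM in B cells, and the APC1 and white ranges overlapped. Its highest mean, 73.4 CPM ± 67.6 (SD, n = 10), was in the cluster annotated as VSMC, almost all of it in the start peak at 71.2 CPM. Klf9, a glucocorticoid-responsive factor that helps to raise Pparg, held 140 CPM ± 18.9 (SD, n = 21) in white adipocytes, 139 CPM ± 50.2 (SD, n = 19) in beige adipocytes and 187 CPM ± 88.7 (SD, n = 20) in APC1. By CPM it was higher in APC1 in 16 of 20 mice, yet the gene did not pass the test (log2 fold change 0.09, SE 0.11, adjusted p = 0.541, edgeR), although it did with DESeq2 (0.36, adjusted p = 0.0048). Relative to the median of all genes tested, Klf9 stood at 0.16 with both tools. Its start peak alone was higher, at 131 CPM against 78.4 CPM (0.31, SE 0.13, edgeR adjusted p = 0.0495), which lies at the threshold.

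The late factors had higher means in white adipocytes than in progenitors, endothelial cells and lymphocytes. Cebpa, which holds the mature adipocyte program together with Pparg, ran from 78.8 to 203 CPM with a median of 121 in white adipocytes, from 62.1 to 247 with a median of 87.2 in beige adipocytes and from 0 to 226 with a median of 86.6 in APC1. The ranges overlapped, with beige below white in 16 of 19 mice and APC1 below white in 15 of 20. The log2 fold changes against white adipocytes were -0.35 in beige (SE 0.09, adjusted p = 0.00077), -0.60 in APC1 (SE 0.14, adjusted p = 0.00011) and -0.91 in VEC (SE 0.22, edgeR adjusted p = 0.00022). The start peak (chr7:35118769-35120181) covers the promoter printed above. A read lay in it in 28.4% of the white adipocyte nuclei and 24.1% of the beige ones, and it was lower in beige by the test (-0.29, SE 0.09, edgeR adjusted p = 0.0209) and in APC1 (-0.83, SE 0.15, edgeR adjusted p = 5.7e-07). Macrophages held 95.6 CPM ± 36.9 (SD, n = 21) of Cebpa, in the range of APC1, and B cells 9.98 CPM. With DESeq2 the beige difference of the whole gene did not pass (adjusted p = 0.0832).

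Klf15, a late KLF gene of fuel use in fat and muscle, gave the largest log2 fold change of any member in the 4 pairs of clusters tested, in VEC against white adipocytes. It ran from 159 to 257 CPM with a median of 212 in white adipocytes, from 62.1 to 279 with a median of 179 in beige adipocytes, from 0 to 249 with a median of 148 in APC1 and from 0 to 174 with a median of 22.2 in VEC. VEC lay below white adipocytes in 15 of 15 mice (log2 fold change -2.00, SE 0.21, edgeR adjusted p = 2e-17). APC1 was lower in 16 of 20 mice (-0.70, SE 0.11, edgeR adjusted p = 9.1e-09) and beige in 13 of 19 (-0.28, SE 0.07, edgeR adjusted p = 0.00064). The beige difference did not pass with DESeq2 (-0.16, adjusted p = 0.375). Its highest mean, 330 CPM ± 223 (SD, n = 10), stood in the cluster annotated as VSMC, whose leading markers were those of skeletal muscle, and the T, B and dendritic cell clusters held 4.56 CPM or less.

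The Klf15 peaks did not share a pattern over the clusters. The start peak, over the promoter printed above, held 40.1 CPM ± 13.8 (SD, n = 21) in white adipocytes, 32.7 CPM in beige adipocytes and 23.7 CPM in APC1. An intron peak centred 858 bases after the start held 67 CPM in white adipocytes and 64.6 CPM in APC1. The coding exon peak (chr6:90467125-90467490, centred 4731 bases after the start), looked at after its values were seen, held 25.3 CPM ± 8.46 (SD, n = 21) in white adipocytes, 32.8 CPM ± 13.4 (SD, n = 19) in beige adipocytes, 1.01 CPM in APC1, 1.55 CPM in APC2 and 0 in VEC. In APC1 it had 4 counts in all, 18 of 20 libraries at 0 and a lower value than white adipocytes in 20 of 20 mice, too few counts for the test. The Klf15 intron peak printed above (chr6:90470877-90471631, centred 8678 bases after the start) went the other way between the fat cells, at 30.7 CPM in white and 20 CPM in beige adipocytes (log2 fold change -0.63, SE 0.18, edgeR adjusted p = 0.0042).

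**Figure D3:**
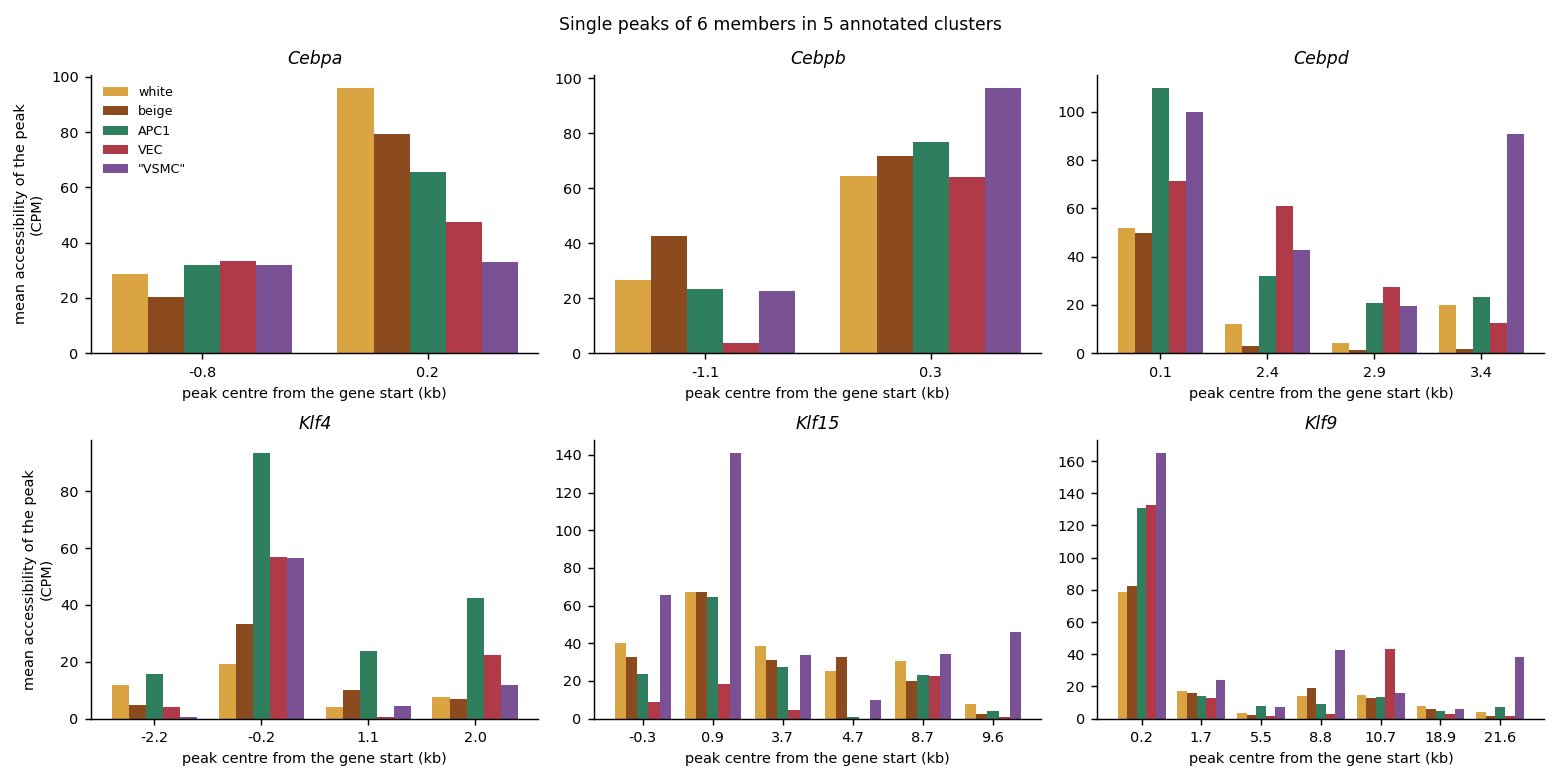
Mean CPM over mice of every peak of Cebpa, Cebpb, Cebpd, Klf4, Klf15 and Klf9 in 5 clusters, by distance of the peak centre from the gene start in kilobases (kb). The Klf15 coding exon peak is open in white and beige adipocytes, at 25.3 and 32.8 CPM, and near 0 in APC1, and the Cebpb upstream peak is highest in beige adipocytes at 42.6 CPM.

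The remaining family members, the pairing partner and the repressor, had their highest means in VEC and in lymphocytes. A highest mean outside the adipose lineage was not particular to them, as Cebpb, Cebpd, Klf5, Klf9 and Klf15 had theirs in the cluster annotated as VSMC. Cebpg had its highest mean in VEC, from 0 to 342 CPM with a median of 140, against 55 to 108 with a median of 83 in white adipocytes. VEC was higher in 14 of 15 mice (log2 fold change 0.67, SE 0.18, edgeR adjusted p = 0.0011), and an intron peak of the gene held 41.6 CPM there and 6.18 CPM in white adipocytes. The direction depends on the window: with 10000 bases on either side counted, Cebpg was lower in VEC (-0.39, edgeR adjusted p = 0.0205). In APC1 it was lower than in white adipocytes (-0.45, SE 0.16, edgeR adjusted p = 0.015), in 12 of 20 mice. This call was lost without day0RT replicate 1 (adjusted p = 0.0793), day1C replicate 2 (0.0628), day3C replicate 3 (0.0531) or day7CL replicate 2 (0.0533). Beige adipocytes gave -0.21 (SE 0.10, adjusted p = 0.11).

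Klf2, which restrains Pparg and keeps lymphocytes quiescent, was open most in lymphocytes, with 130 CPM ± 17.2 (SD, n = 21) in B cells, 127 CPM ± 19.3 (SD, n = 20) in CD8 T cells and 125 CPM ± 35.4 (SD, n = 20) in CD4 T cells. White adipocytes had the lowest mean, from 0 to 52.5 CPM with a median of 34.7, below all 21 B cell libraries, of which the lowest was 101 CPM. APC1 ran from 0 to 228 CPM with a median of 75.7 and was above white adipocytes in 18 of 20 mice (log2 fold change 0.76, SE 0.17, edgeR adjusted p = 5.6e-05). VEC was higher in 11 of 15 (0.98, SE 0.24, edgeR adjusted p = 0.0002). Beige and white adipocytes gave 0.17 (SE 0.13, adjusted p = 0.35).

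Zfp423, the commitment factor, had its highest mean in white adipocytes, not in progenitors. It ran from 459 to 686 CPM with a median of 551 in white adipocytes, from 385 to 863 with a median of 476 in beige adipocytes and from 0 to 818 with a median of 420 in APC1, over all 59 peaks. Beige was lower in 16 of 19 mice (log2 fold change -0.28, SE 0.06, edgeR adjusted p = 7.8e-05) and APC1 in 17 of 20 (-0.70, SE 0.09, edgeR adjusted p = 9.9e-14). VEC held 415 CPM ± 133 (SD, n = 15), close to APC1, and was lower than white adipocytes in 13 of 15 mice (-0.80, SE 0.12, edgeR adjusted p = 5.1e-10). That cluster also carried a summed level of adipocyte markers of 742 CPM, against 438 CPM in APC1. Whether adipocyte signal adds to its Zfp423 level was not tested. APC1 was above APC2 in 14 of 18 mice (0.32, SE 0.13, edgeR adjusted p = 0.0464). The window and the tool decide some of these calls. Counted within 2000 bases of the start, the beige difference was -0.14 (adjusted p = 0.335) and the APC1 difference from APC2 turned to -0.10 (adjusted p = 0.935), and with DESeq2 the beige difference was -0.15 (adjusted p = 0.285). Single peaks did not all follow the sum. Most had a lower median in APC1 than in white adipocytes, but a few had a higher one. The median gene total of a library was 43360 counts in APC1 and 581723 in white adipocytes. At the lower depth a weakly open peak can have a median of 0 whatever its level. The lower medians therefore do not show that these peaks were less open in APC1. The highest APC1 median was 49.2 CPM (0 to 135 CPM), beside 10.4 CPM in white adipocytes. These peaks were looked at after their values were seen, and no Zfp423 peak had enough counts for the test between APC1 and white adipocytes.

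The second question was what cold and CL did to the members in fat cells. White and beige nuclei of a mouse were added together as adipocytes, which gave between 29 and 933 nuclei and between 48868 and 3354348 gene counts per mouse, with the least in day1CL replicate 1. Each treated group was compared with day0RT by the edgeR quasi-likelihood test over 14429 genes, all 10 members among them. All 6 comparisons share the 3 day0RT mice. Statements below that treated mice lay below day0RT, or did not overlap with it, are descriptions. The share of all genes or peaks without such an overlap was not counted. Neither treatment gave a member that passed on day 1 (0 of 10 on day1C, where 0.34% of genes were called, and 0 of 10 on day1CL, where 2.61% were), with 2 members at an unadjusted p under 0.05 on each. On day3C 0 of 10 passed, with 1.68% of genes called and 2 members at an unadjusted p under 0.05. Over all 14429 genes, 1439 had such an unadjusted p on day1C, 2189 on day1CL and 2072 on day3C. DESeq2 called 0 members in these 3 comparisons as well. On day7C 2 members were lower, with 5.08% of genes called, and 1 was lower on day3CL, with 4.77%, and on day7CL, with 7.81%. None was higher. The members that passed were Cebpa and Zfp423. Counts of 1 or 2 of 10 are too few to set apart from the shares over all genes.

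**Figure D4:**
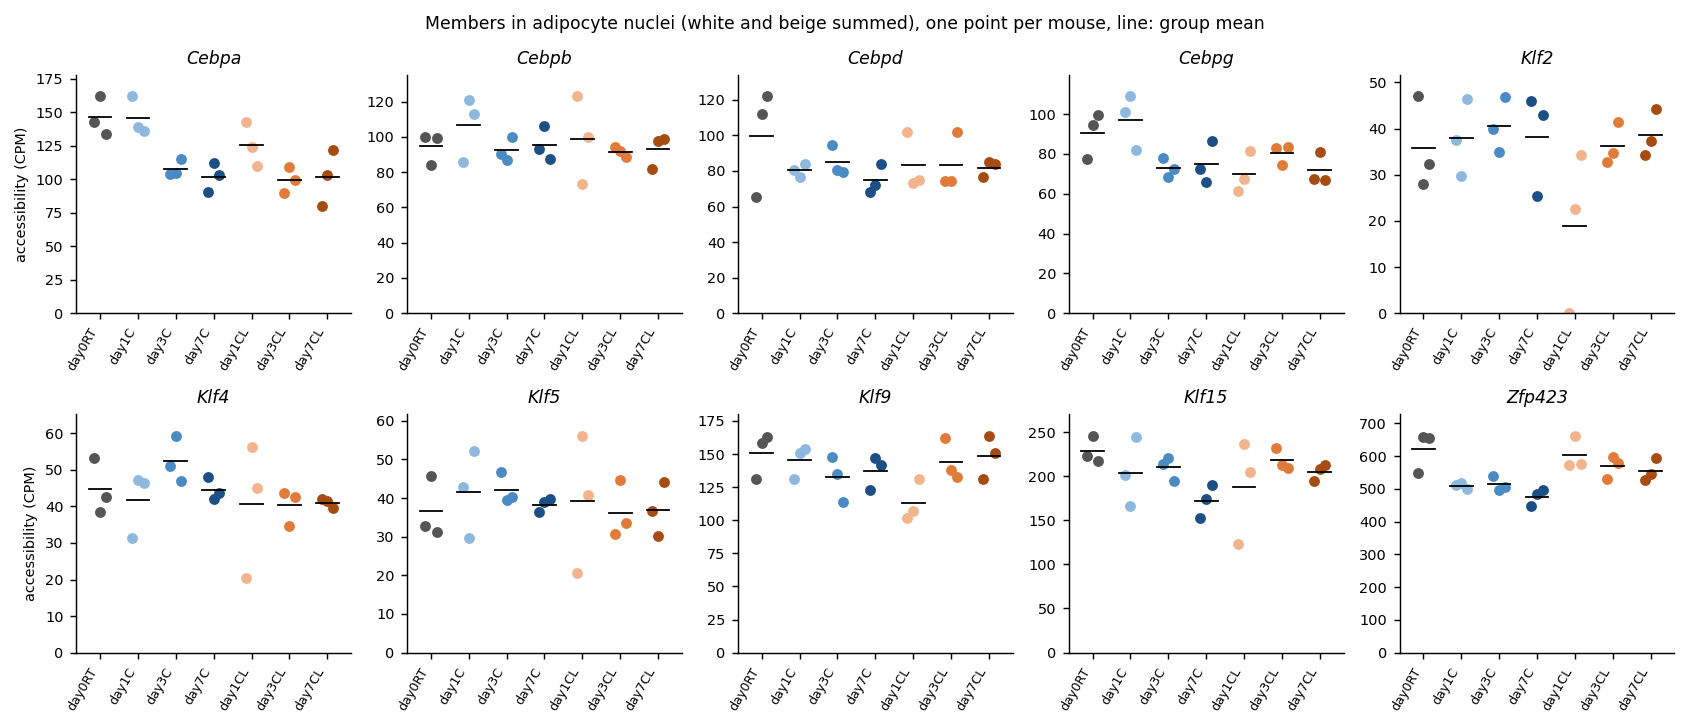
Level of each member in adipocytes of every mouse by group, in CPM, with 1 point per mouse and a line at the mean of the 3 mice. Cebpa lies below its 3 day0RT values in all mice of day3C, day7C, day3CL and day7CL, and Zfp423 in all mice of the 3 cold groups. The share of all genes that separate in this way was not counted.

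Cebpa fell in adipocytes with both treatments. It held 143, 162 and 134 CPM in the 3 day0RT mice, 162, 139 and 136 on day1C, 104, 105 and 115 on day3C and 90.9, 112 and 103 on day7C. With CL it held 143, 124 and 110 on day1CL, 89.6, 109 and 99.6 on day3CL and 79.9, 103 and 122 on day7CL. The day 1 mice overlapped with day0RT, whereas every mouse of days 3 and 7 lay below the lowest day0RT mouse. The log2 fold change passed the test on day7C (-0.49, SE 0.14, adjusted p = 0.0286), day3CL (-0.45, SE 0.14, adjusted p = 0.0363) and day7CL (-0.59, SE 0.14, edgeR adjusted p = 0.0034). On day3C it was -0.41 (SE 0.14, adjusted p = 0.0967). The day7CL call was lost without day7CL replicate 1 (-0.35, adjusted p = 0.277), the day7C call without any of 5 of its 6 mice (adjusted p between 0.0592 and 0.143) and the day3CL call without any of its 6 mice (adjusted p between 0.0522 and 0.117). None of the 3 passed within 2000 bases of the start (adjusted p = 0.203 on day7C, 0.319 on day3CL and 0.0983 on day7CL) or with DESeq2 (0.0699, 0.111 and 0.0511). Both Cebpa peaks lie within that window of 2000 bases, so its counts were the same there. What differed were the 11408 genes tested, in place of 14429, and with them scaling and adjustment. In white adipocyte nuclei alone the fall was -0.32 on day7C (adjusted p = 0.357), beside a share of beige nuclei among adipocytes that was 26.1 to 32.5% on day7C and 7.69 to 12.2% on day0RT. How far that share accounts for the fall was not tested.

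The fall was also called at the start peak of Cebpa by edgeR, though not by DESeq2. Most counts of the gene lie in this peak, so its calls are not separate support. That peak held 123, 130 and 110 CPM in the day0RT mice, 79, 83.7 and 80.4 on day3C, 69.5, 85.4 and 82.5 on day7C, 72.2, 88.6 and 82.3 on day3CL and 60.7, 84.2 and 102 on day7CL. On day 1 it held 124, 114 and 106 CPM with cold and 61.4, 101 and 87.1 CPM with CL. The mice of day1CL, day3C, day7C, day3CL and day7CL were all below the lowest day0RT mouse, and those of day1C overlapped with day0RT. The log2 fold changes were -0.55 on day3C (SE 0.15, adjusted p = 0.0252), -0.59 on day7C (SE 0.16, adjusted p = 0.0138), -0.47 on day3CL (SE 0.14, adjusted p = 0.0384) and -0.67 on day7CL (SE 0.15, edgeR adjusted p = 0.002). On day1CL it was -0.42 (SE 0.18, edgeR adjusted p = 0.209). The peak was open in 30.6, 23.7 and 33.3% of adipocyte nuclei on day0RT and in 37.4, 24.1 and 34.4% on day3C, while gene counts per nucleus went from 2500, 1830 and 3040 to 4730, 2880 and 4290. On day7CL, replicate 1 had 6160 gene counts per nucleus and the lowest level of the peak, 60.7 CPM. Replicate 3 had 1840 gene counts per nucleus and the highest level, 102 CPM. Without replicate 1 the day7CL call of the gene was lost. A nucleus counts at most once in a peak, and the part of depth in these levels was not tested. Log2 ratios of mean CPM of the peak to day0RT were -0.08 on day1C, -0.58 on day3C, -0.61 on day7C, -0.54 on day1CL, -0.58 on day3CL and -0.56 on day7CL. With a rate worked out from the share of nuclei at 0, an alternative chosen after seeing the data, they were -0.11, -0.55, -0.65, -0.62, -0.59 and -0.58 in the same order. The summed level of 6 adipocyte markers was 1880 to 2240 CPM on day0RT, 2110 to 2400 on day1C, 1650 to 1920 on day3C, 1620 to 1760 on day7C, 1620 to 1830 on day1CL, 1660 to 1830 on day3CL and 1640 to 1960 on day7CL, with 0 of the 6 markers at 0. All mice of day7C, day1CL and day3CL were below day0RT, and the other groups overlapped with it. Their part in the result was not tested.

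Zfp423 fell with cold and did not pass the test with CL. It held 548, 660 and 654 CPM on day0RT, 511, 518 and 500 on day1C, 539, 498 and 507 on day3C and 447, 484 and 498 on day7C, so that all 9 cold mice lay below the lowest day0RT mouse. With CL it held 573, 663 and 577 on day1CL, 531, 597 and 580 on day3CL and 528, 545 and 595 on day7CL, which overlapped with day0RT. The log2 fold change was -0.38 on day7C (SE 0.10, edgeR adjusted p = 0.0077), -0.29 on day1C (adjusted p = 0.215), -0.27 on day3C (adjusted p = 0.135) and -0.16 on day7CL (adjusted p = 0.327). The day7C call was lost without day0RT replicate 3 (adjusted p = 0.0977) or day7C replicate 1 (adjusted p = 0.062), in white adipocyte nuclei alone (-0.28, adjusted p = 0.158) and within 2000 bases of the start (-0.37, adjusted p = 0.288). The difference between the treatments was tested directly on the same days. CL was above cold by 0.22, 0.17 and 0.22 on days 1, 3 and 7, with edgeR adjusted p-values of 0.384, 0.413 and 0.433, so cold and CL were not shown to differ at Zfp423.

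Single peaks of Zfp423 fell with cold, and 1 of them also with CL. Over all members, 45 peaks were tested in adipocytes among 47835. The members' peaks gave 0 calls on day1C (0.213% of peaks called), 1 lower on day3C (1.28%), 4 lower on day7C (3.13%), 1 higher on day1CL (2.06%), 1 lower on day3CL (3.46%) and 2 lower on day7CL (4.19%). With CL these counts were near the shares over all peaks. With cold they were few as well, and 3 of the 4 on day7C lay on the single gene Zfp423. Nothing particular to the members is read from the counts of either treatment. On day1C, 4 members' peaks had an unadjusted p under 0.05, beside 4668 of all 47835 peaks. Besides the Cebpa start peak, all called peaks of the members were on Zfp423. The intron peak printed above (chr8:87851460-87852365, centred 107683 bases after the start) fell on day7C (-1.05, SE 0.28, adjusted p = 0.0164) and day7CL (-0.79, SE 0.25, edgeR adjusted p = 0.0451). It held 26.6, 31.6 and 42.7 CPM on day0RT, 15, 18 and 19 on day7C and 20.1, 21.8 and 21.3 on day7CL, from 9 to 60 counts each, with no overlap between the treated mice and day0RT. A peak in an untranslated exon 15170 bases after the start fell on day7C (-0.86, SE 0.26, edgeR adjusted p = 0.0379), as did an intron peak 1646 bases after the start (-1.14, SE 0.35, edgeR adjusted p = 0.042). An intron peak 122533 bases after the start was higher on day1CL (1.57, SE 0.46, edgeR adjusted p = 0.0397). DESeq2 called none of the members' peaks in adipocytes.

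**Figure D5:**
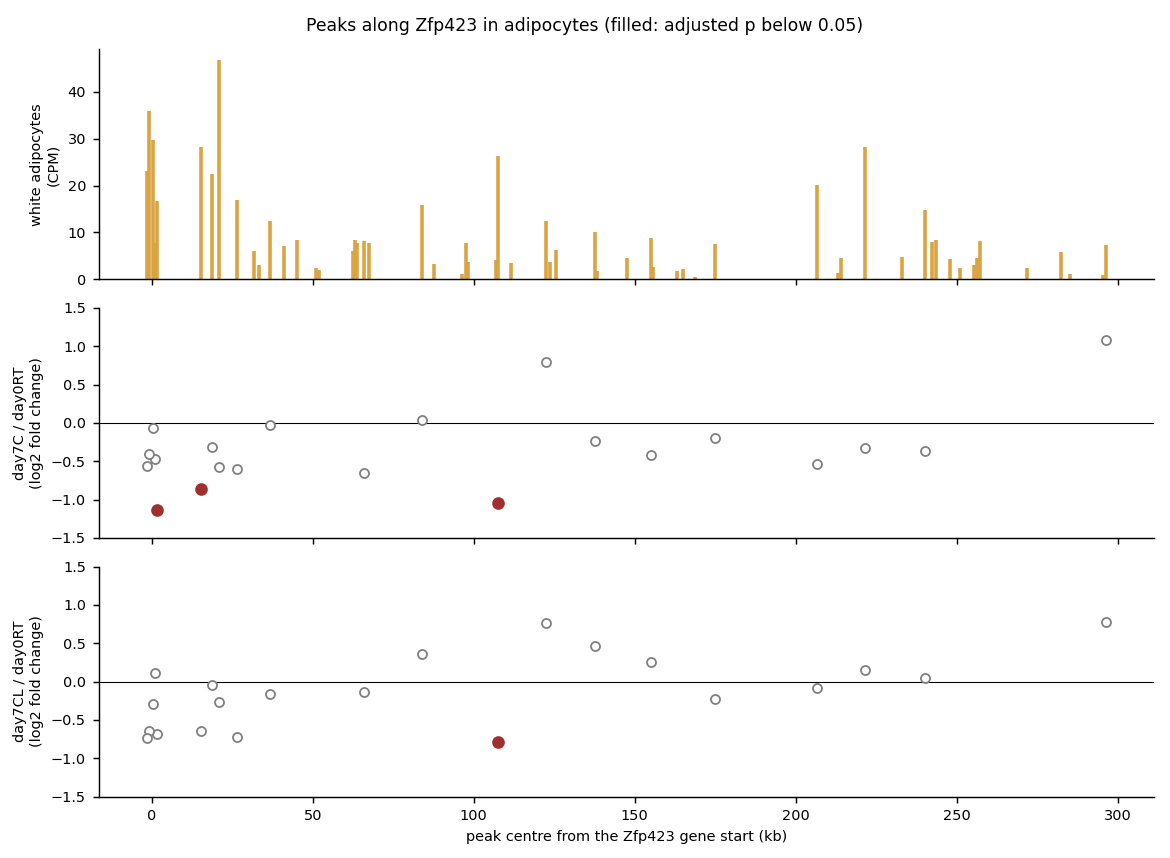
The 59 peaks of Zfp423 by distance from the gene start: CPM in white adipocytes, and, for the peaks tested, the log2 fold change in adipocytes on day7C and day7CL against day0RT, with filled points past an adjusted p of 0.05. The peak 107683 bases after the start is lower by 1.05 on day7C and by 0.79 on day7CL.

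The other 8 members gave no call in adipocytes against day0RT. Klf15 held 223, 246 and 217 CPM on day0RT and 153, 174 and 190 on day7C, with no overlap, and its log2 fold change of -0.38 (SE 0.12, edgeR adjusted p = 0.057) stood just above the threshold. On day7CL it held 194, 208 and 213 CPM, also below all day0RT mice, without a call. Cebpd held 65.4, 112 and 122 CPM on day0RT and 68.4, 71.9 and 84.1 on day7C, so that its own controls spanned the treated values (-0.44, edgeR adjusted p = 0.106). Without day0RT replicate 1, the low control, Cebpd passed on day7C (-0.67, adjusted p = 0.0115), day1CL (-0.68, adjusted p = 0.037) and day7CL (-0.58, edgeR adjusted p = 0.0209). Cebpb, the early factor that cyclic AMP induces, held 100, 84.3 and 99.4 CPM on day0RT, and its log2 fold changes lay between -0.11 and 0.07 in the 6 comparisons. Klf5 gave 0.10 to 0.38, Klf2 -0.18 to 0.17, Klf4 -0.22 to 0.18, Klf9 -0.28 to -0.06 and Cebpg -0.37 to 0.08, all without a call and with groups that overlapped day0RT.

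Cold and CL were also set against each other on the same day, and no member differed by the edgeR test. The counts were 0 of 10 on day 1 (0.922% of genes called), 0 of 10 on day 3 (1.46%) and 0 of 10 on day 7 (0.111%), with 2 members at an unadjusted p under 0.05 on each day and 0 by DESeq2. Over all 14429 genes, 1843, 1741 and 1231 had such an unadjusted p on days 1, 3 and 7. The largest differences of members were Cebpa on day 1, at -0.40 in CL against cold (adjusted p = 0.243), and Klf4 on day 3, at -0.40 (SE 0.13, edgeR adjusted p = 0.122). Averaged over the days, Zfp423 was the only member called lower in adipocytes with cold (-0.31, SE 0.08, edgeR adjusted p = 0.0168), where 2.33% of genes were called. With CL, Cebpa was the only member called lower (-0.46, SE 0.12, edgeR adjusted p = 0.0125), where 6.43% were. Without a call, Cebpd gave -0.34 with cold (adjusted p = 0.205) and -0.36 with CL (edgeR adjusted p = 0.113). Cebpa gave -0.28 with cold (adjusted p = 0.228) and Zfp423 -0.11 with CL (adjusted p = 0.492). The Zfp423 call was lost without day0RT replicate 2 (adjusted p = 0.126) or 3 (0.244), and the Cebpa call without day0RT replicate 1 (0.053) or 2 (0.07) or day1CL replicate 3 (0.108). In white adipocyte nuclei alone neither passed (-0.25, adjusted p = 0.12, and -0.40, edgeR adjusted p = 0.0531). A count of 1 member per treatment is too few to set apart from the shares over all genes.

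In the other cell types no member passed the edgeR test of the averaged treatments. APC1 had 4 members with enough counts (0% of genes called with cold and 0.0688% with CL), macrophages 5 (0% and 0%), VEC 2 (0% and 0%) and B cells 6 (0.113% with cold and 1.31% with CL). The only member with an unadjusted p under 0.05 was Cebpa in macrophages with cold (-0.75, SE 0.30, adjusted p = 1), where 141 of all 3553 genes had one. DESeq2 called 0 members in these cell types. VEC had a single day0RT library, and the APC1 sums were small, so differences in these cells were not detectable at this depth rather than shown to be absent.

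The wider set of adipogenic genes gives the setting of these values. Of the other C/EBP genes, 1 of 2 had a peak and 0 were tested. Of the other KLF genes, 6 of 12 could be tested between clusters. Beige adipocytes were lower than white ones at 3 of these 6 and higher at 0, among them Klf12 (-0.62, adjusted p = 0.00013) and Klf6 (-0.39, edgeR adjusted p = 0.00019), with a median of -0.24 over these KLF genes. Over all genes 1939 were lower in beige and 918 higher, and with DESeq2 990 were lower and 1388 higher, so nothing particular to these lists is read from their direction. APC1 was higher than white adipocytes at 2, Klf12 (1.44, adjusted p = 9.3e-21) and Klf3 (0.45, adjusted p = 0.00093), and lower at 1, Klf13 (-0.41, edgeR adjusted p = 8.7e-07). Klf3 was also higher in APC1 than in APC2 (0.5, edgeR adjusted p = 0.0228). Klf7 was higher in VEC (2.44, adjusted p = 9e-27) and Klf13 lower (-0.45, edgeR adjusted p = 9.3e-05). None of the 9 other KLF genes tested in adipocytes was called in any treated group.

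Other regulators of adipogenesis, 15 of 18 tested between clusters, were lower in beige than in white adipocytes at 7 genes and higher at 2, with a median of -0.19 beside -0.07 over all genes. The higher ones were Prdm16 (0.54, adjusted p = 8e-16) and Ebf2 (0.40, edgeR adjusted p = 4.9e-09), which drive thermogenic fat cells. APC1 was higher than white adipocytes at 3 and lower at 9, and higher than APC2 at 3, with Ebf2 at 2.23, and lower at 1. In adipocytes Pparg, the partner of Cebpa, rose on day3C (0.40, adjusted p = 0.0187), day3CL (0.33, adjusted p = 0.0426) and day7CL (0.44, edgeR adjusted p = 0.0025). Zfp521, a repressor of adipogenesis related to Zfp423, rose on day3C (0.76, adjusted p = 0.00066) and day7C (0.58, edgeR adjusted p = 0.0089). None of this list fell in a treated group against day0RT. The list of 10 adipocyte genes known as targets of C/EBP alpha and PPAR gamma was lower at 10 in APC1 (median -2.67) and at 5 in beige adipocytes (median -0.19) than in white ones, with Lep at -0.84 (edgeR adjusted p = 4.6e-21) in beige. Over all genes 52.7% were called in APC1 and 32% in beige. Adipoq, Fabp4 and Plin1 of the list are also among the adipocyte markers. The clusters were made from this same matrix, so the APC1 count is a description. With treatment 0 of the 10 were lower on day1C, 4 on day3C (median -0.14), 4 on day7C (-0.12), 1 on day1CL, 3 on day3CL and 4 on day7CL (-0.24), and 0 were higher. Over all genes 0.34, 1.68, 5.08, 2.61, 4.77 and 7.81% were called in the same order. Adipoq was lower by the largest amount, at -0.86 on day7C (adjusted p = 2.3e-05) and -0.92 on day7CL (edgeR adjusted p = 1.9e-06), followed on day7C by Pck1 (-0.84, adjusted p = 0.00034).

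The order of the 12 clusters was also compared with that of other genes, as Pearson's r of log2(mean CPM + 1) over the 12 clusters among 12231 genes with a mean of at least 20 CPM. These are descriptions, since clusters share libraries and depth. Klf15 was most like Pdk4 (0.983), Lrig3 (0.981) and Cntnap1 (0.978), Cebpa like Zc2hc1a (0.98), Aoah (0.978) and Dmxl2 (0.97), and Zfp423 like Ift43 (0.98), Nradd (0.975) and Ptpa (0.973). Cebpb was most like Mkln1 (0.973), Cebpd like Samd4 (0.961), Cebpg like Hyal2 (0.921), Klf2 like Sgo1 (0.951), Klf5 like Acvr2b (0.965) and Klf9 like Vwa1 (0.945). Klf4 had the least close match, Tbc1d12 at 0.875. Among the members, Cebpb and Klf15 were the closest pair (0.9), before Cebpa and Cebpd (0.89) and Klf15 and Zfp423 (0.88), and Cebpa and Klf2 were the farthest apart (-0.73).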

How the data were processed

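The authors aligned combinatorial-indexing snATAC-seq reads to mm10 (GRCm38) with Bowtie2, filtered them with SAMtools, called peaks per cluster with MACS2, removed doublets and clustered nuclei with Signac. The deposited matrix holds counts limited to 0 or 1 (65588856 ones over 189598 peaks and 32552 nuclei), and the deposited nucleus table gives mouse, group and cluster. The 4 deposited samples are sequencing lanes that mix all mice, so groups were taken from that table. Columns of per-sample values left unused numbered 0.

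Peaks on a gene body of GENCODE vM21 and the 2000 bases before its start were added up per gene, and 3.43% of peaks counted for 2 or more genes. A nucleus gives at most 1 count per peak, which compresses values in deep nuclei. Sums per mouse and cluster with at least 10 nuclei were tested with the edgeR 4.0.16 quasi-likelihood test in R 4.3.3, with TMM scaling, filterByExpr (minimum count 10, minimum total 15, proportion 0.7) and Benjamini-Hochberg adjustment over all genes or peaks tested at a threshold of 0.05. Clusters were compared with the mouse as a block, and treated groups with day0RT over all 7 groups without one. The scripts were tested on simulated data. Nothing in the sources says that the 3 mice of a group were housed apart, so p-values measure the spread between these mice.

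The 10 members, the peaks over their starts, up to 3 called peaks per comparison, the lists (at most 2 called genes per direction and comparison named) and the 3 genes most alike in pattern were named by rule. The members and lists were chosen with earlier results of these data known. Alternatives were DESeq2 1.42.0, no filter, windows of 2000 or 10000 bases, deeper nuclei, at least 30 nuclei, white adipocyte nuclei alone, the replicate number as a block, and leaving out each mouse. Promoters came from RefSeq and peak sequences from GRCm38.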

Additional observations from a re-analysis of the deposited data

How the results depend on the processing

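Limits. The members' calls in adipocytes rest on 3 mice a group, and many moved under other settings. Calls between clusters moved as well, among them the 2 that turned, named below. In VEC the calls rest on few counts, with 34 in all for Klf15 and 39 for Cebpa. Depth limits the small clusters most: VEC by group without day0RT replicate 2, its only day0RT library, could not be fitted. The gene results under other settings kept their call or lack of call in 1169 instances, lost it in 38, gained it in 18 and turned in 2: Zfp423 in APC1 against APC2 with peaks within 2000 bases of the start (-0.10) and Cebpg in VEC against white adipocytes with 10000 bases on either side (-0.39). Unless a cause is given, the cause was not tested.

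Members called in beige against white adipocytes went from 5 to 2 with DESeq2, which changes scaling and test together, and to 3 with peaks within 2000 bases of the start, which tests fewer peaks. All genes gave 2378 calls of 8923 with DESeq2 and 529 of 5080 within 2000 bases, in place of 2857 of 8923. APC1 against APC2 went from 3 to 1 in a fit of those 2 clusters alone, in which 1 member had enough counts, and VEC against white adipocytes from 6 to 3 in nuclei with at least 2000 entries. Over all genes these 2 settings called 429 of 707 and 2207 of 9947, in place of 2297 and 4032 of 8923. In adipocytes against day0RT the 4 calls became 1 with DESeq2, 1 in white adipocyte nuclei only, 0 within 2000 bases of the start, 8 with 10000 bases on either side and 2 in nuclei with at least 2000 entries. Over all genes on day7C, these settings called 300, 253, 97, 1077 and 571 in the same order, in place of 733. On day7CL they called 234, 911, 130, 1471 and 838, in place of 1127. CL against cold on the same day went from 0 to 1 with 10000 bases on either side (Cebpg on day 1, -0.49). That setting called 236 of 16414 genes on day 1, in place of 133 of 14429. The 2 calls of the averaged treatments became 0 within 2000 bases of the start and 0 in white adipocyte nuclei only, the latter chosen after seeing the data. Over all genes, cold gave 41 and 171 calls in the same order, in place of 336, and CL gave 131 and 789, in place of 928. Members' peaks went from 3 to 42 in beige and from 3 to 69 in APC1 against white adipocytes with no filter on low counts, and from 9 to 0 in adipocytes both with no filter and with DESeq2. Of all 189546 peaks tested with no filter between clusters, 43620 were called in beige and 101938 in APC1. In adipocytes on day7CL, 835 of 189547 were called with no filter and 11 of 47835 with DESeq2, in place of 2003.

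Leaving out each mouse in turn gave 5 to 6 members in beige and 6 to 7 in APC1 against white adipocytes, 2 to 3 in APC1 against APC2, 5 to 7 in VEC, 1 to 5 in adipocytes against day0RT, 0 in CL against cold, 0 to 3 for the averaged treatments, and 1 to 4, 2 to 6 and 1 to 10 for peaks in beige, APC1 and adipocytes. The adipocyte counts were lowest without day0RT replicate 3 (1 gene, 1 peak), day0RT replicate 2 (2 genes, 2 peaks) and day7C replicate 1 (2 genes, 4 peaks), and without day7C replicate 2 there were 5 peaks. The averaged count was 0 without day0RT replicate 2, and 1 without day0RT replicate 3 or day1CL replicate 3. The beige peaks were 1 without day3C replicate 1 and the APC1 peaks 6 without day1CL replicate 2. Zfp423 in APC1 against APC2 lost its call in 9 of these fits.

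The study states that its batches of snATAC-seq were run independently, but no label ties a replicate number to a batch, so whether the numbers pair the mice is unknown. Same-numbered mice did not deviate together (correlations -0.123 to 0.116, median 0.0017 over 63 pairs). With the replicate number as a block there were 4 members in adipocytes, 0 in CL against cold, 2 for the averages and 7 peaks. With the treatment group in place of the mouse block there were 5, 7, 3 and 6 members and 3 and 3 peaks between clusters.

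Counts over all features moved too. DESeq2 called 300 genes in place of 733 on day7C, 234 in place of 1127 on day7CL, 176 in place of 688 on day3CL, 53 in place of 242 on day3C, 145 in place of 377 on day1CL and 9 in place of 49 on day1C, and 29 peaks in place of 1499 on day7C and 11 in place of 2003 on day7CL. No filter gave 4551 genes in place of 2857 in beige, 7899 in place of 4705 in APC1 and 6770 in place of 4032 in VEC, all against white adipocytes, and 3478 in place of 2297 in APC1 against APC2. It also gave 43620 peaks in place of 1764 in beige and 101938 in place of 231 in APC1. Peaks within 2000 bases of the start gave 529 genes in beige, 1294 in APC1, 97 on day7C and 130 on day7CL. White adipocyte nuclei alone gave 253 genes on day7C.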
